A study of Mus musculus with 27 samples.

Results

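This account follows 9 genes of KIT, EPO receptor and JAK-STAT5 signalling in mouse erythroleukaemia (MEL) cells, a line of transformed erythroid progenitors. The genes are *Kit*, *Epor*, *Jak2*, *Stat5a*, *Stat5b*, *Cish*, *Socs2*, *Socs3* and *Pim1*. They were taken by symbol from 5 RNA-Seq tables that list 14558 genes in common, and each of the 9 is listed and passed the filter on low counts in every table. The rule names them by their place in the pathway, and it was set with earlier results of these data known.

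RNA-Seq was performed on 21 libraries of MEL cells (C88 clone) in 5 comparisons, each with its own controls. *Cbfa2t3*, which encodes the co-repressor ETO2, was depleted with lentiviral shRNAs sh2 (Eto2 KD-sh2, 2 libraries) and sh3 (Eto2 KD-sh3, 2 libraries) and set against 2 controls labelled Eto2 WT. *Irf2bp2*, whose product binds ETO2, was depleted with 1 shRNA (Irf2bp2 KD-sh1, 2 libraries, against 2 labelled Irf2bp2 WT). *Kdm1a*, which encodes the histone demethylase LSD1, was also depleted with shRNA (Lsd1 KD, 2 libraries, against 1 library labelled Lsd1 WT). The shRNA cultures were collected at 72 h. *Gfi1b*, which encodes a zinc-finger repressor, was depleted with siRNA (Gfi1b KD, 2 libraries, against 2 labelled Gfi1b WT), and which siRNA and which time belong to which library is not given in the sources used here. MEL differentiation was read as 2 libraries labelled MEL induced (96 h by the study) against 2 labelled MEL non-induced, taken here as 0 h. By the study's methods the controls of the KDs received a non-targeting RNA, so they share the transfection or virus with the KDs. *Irf2bp2* KD rests on a single hairpin, and the cells are a leukaemic clone with no other genotype beside it.

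KIT is the receptor of stem cell factor and carries early erythroid progenitors, which lose it as they mature. EPOR, the erythropoietin receptor, has no kinase of its own and works through the bound kinase JAK2, which phosphorylates the transcription factors STAT5A and STAT5B. These enter the nucleus and switch on genes such as *Cish*, *Socs2* and *Socs3*, whose products feed back on the receptor or on JAK2, and *Pim1*, which encodes a survival kinase.

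The shRNA libraries held between 44519414 and 57684583 counted reads and the *Gfi1b* and differentiation libraries between 9929311 and 19623105. A floor of 3 counts, taken here as the limit of detection, was at most 0.0676 normalized read counts scaled to library size (CPM) in the former and at most 0.302 CPM in the latter. Of the targeted genes, *Cbfa2t3* fell (log2 fold change -1.21, adjusted p = 0.00954), *Irf2bp2* was lower by less than the limit used here (-0.33, adjusted p = 0.00266) and *Kdm1a* was at 152 CPM in its control and 16.9 and 16.3 CPM in the KDs. *Gfi1b* was at 122 and 145 CPM in its controls. It was at 216 CPM in the library labelled Gfi1b KD replicate 1 and at 76.5 CPM in replicate 2, so the mRNA of replicate 1 does not bear out its label. No protein values were used here, so whether GFI1B was depleted in that library is not known. Erythroid markers were abundant in every library, whereas 6 myeloid markers summed to at most 3.84 CPM and 4 lymphoid markers to at most 1.53 CPM. No replicate pair agreed within counting noise.

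Per length of transcript, the levels of the 9 genes were far apart, with medians over the 9 control libraries from 0.661 to 107. In the authors' RPKM, the order of the median levels was *Epor* (107, from 83.5 to 143), *Pim1* (87.4, from 68.4 to 115), *Jak2* (55.5, from 41.8 to 77.3), *Stat5a* (38.8, from 36.4 to 44.9), *Stat5b* (28.3, from 25.1 to 36.5), *Cish* (17.4, from 10.8 to 21.1), *Socs2* (15.2, from 13.3 to 22.2), *Socs3* (1.43, from 0.818 to 2.16) and *Kit* (0.661, from 0.394 to 2.55). The ranges of neighbours in that order overlapped except at the steps from *Stat5b* to *Cish* and from *Socs2* to *Socs3*. MEL cells of these libraries thus held abundant *Epor* and *Pim1* mRNA and very little *Kit* mRNA. The 9 controls come from 5 tables, and the differences between tables were not tested.

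**Figure D1:**
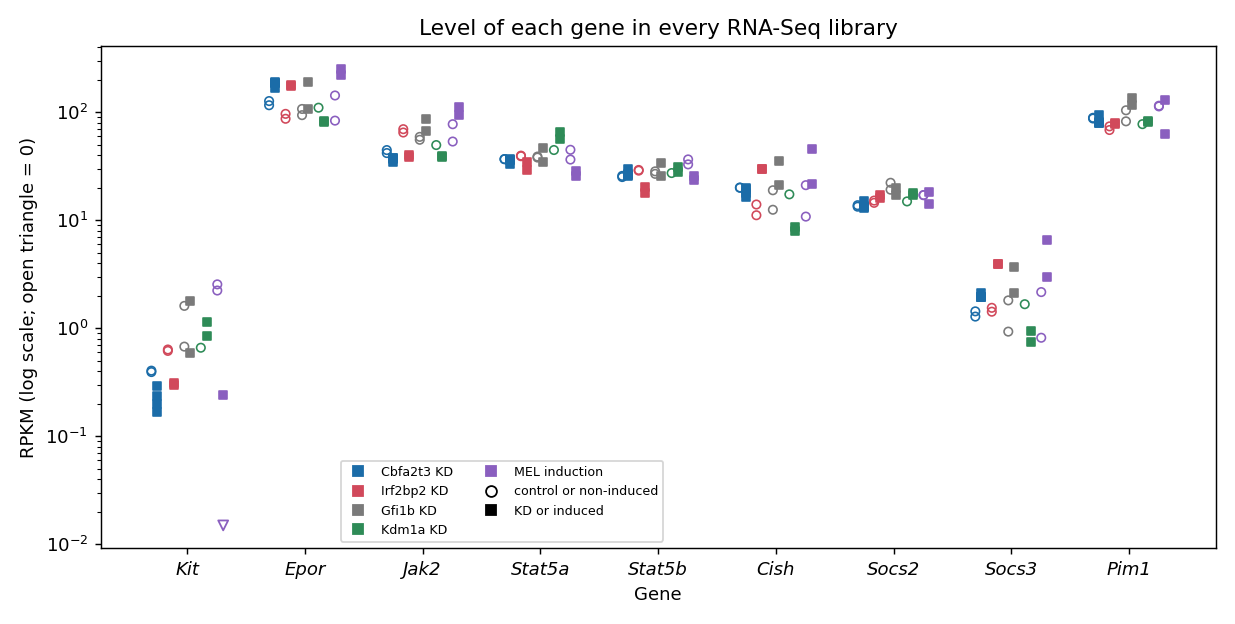
RPKM of each gene (y axis, log scale) in each of the 21 libraries, with open circles for control or non-induced libraries, filled squares for KD or induced libraries and colours for the 5 comparisons; the open triangle is the induced library in which *Kit* is listed at 0. *Epor* and *Pim1* lie at the top and *Kit* and *Socs3* at the bottom.

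Changes were tested over all genes of a table with edgeR's quasi-likelihood test and Benjamini-Hochberg adjustment. A gene was called where its adjusted p did not exceed 0.05 and its log2 fold change reached 0.5 in size. Lack of overlap between treated and control libraries was common over all genes tested. Its share was 37.8% in *Cbfa2t3* KD, 74.1% in *Irf2bp2* KD and 67.3% in MEL differentiation. It was 39.2% in *Gfi1b* KD and 88.8% in *Kdm1a* KD. In *Cbfa2t3* KD 3 of the 9 genes were called, beside 5.74% of all genes tested. *Epor* and *Socs3* rose and *Kit* fell. In *Irf2bp2* KD 6 of 9 were called, beside 22.5% of all genes: *Epor*, *Cish* and *Socs3* rose, and *Kit*, *Jak2* and *Stat5b* fell. In MEL differentiation 4 of 9 were called, beside 27.2% of all genes: *Epor*, *Cish* and *Socs3* rose and *Kit* fell. In *Gfi1b* KD 0 of 9 were called, beside 0% of all genes. There, 784 genes had an unadjusted p under 0.05, and DESeq2 called 47 genes (0.378%) and 0 of the 9. Without the library labelled Gfi1b KD replicate 2, where *Gfi1b* itself was low, the test called 4 of the 9 (*Epor*, *Jak2*, *Cish* and *Socs3*, all higher), beside 26.7% of all genes. Without replicate 1 it called *Pim1* alone of the 9, beside 3.48% of all genes. *Kdm1a* KD has 1 control, and here a gene was called, with no test, when both KD libraries lay 0.5 or more from it on the log2 scale. By this rule *Cish* and *Socs3* were lower, 2 of 9, beside 22.9% of all genes. An edgeR fit that took the spread from the KD libraries alone called 3 of 9, beside 22.5% of all genes. These were *Cish* and *Socs3*, both lower, and *Kit*, higher. The control's own spread is not measured in that fit, so its p-values are not given and no call here rests on it.

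**Figure D2:**
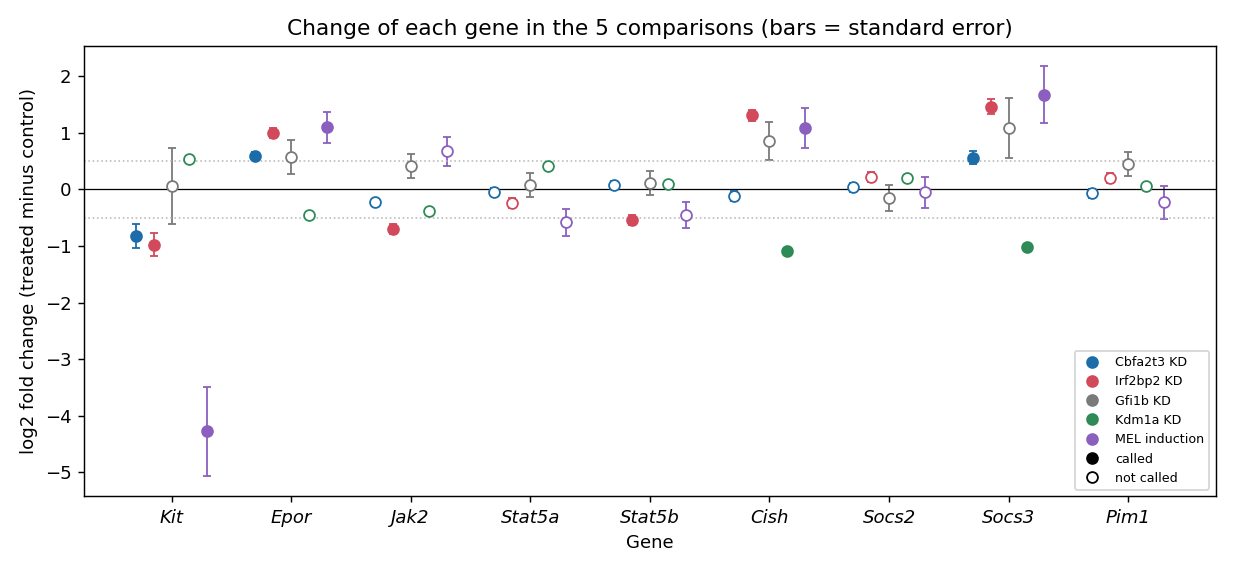
Log2 fold change of each gene (y axis) in the 5 comparisons (colours), with bars for the standard error and filled points for called changes; *Kdm1a* KD, called by the fold rule, is drawn without an error. *Kit* in MEL differentiation lies lowest at -4.28, and *Stat5a*, *Socs2* and *Pim1* have no filled point.

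*Kit* encodes the receptor of stem cell factor and lies on the plus strand at chr5:75970941-76052747 (mm9). It was at 2.02 and 2.08 CPM in the Eto2 WT libraries, 1.23 and 1.52 CPM with sh2 and 0.876 and 1.02 CPM with sh3, so that all 4 KD libraries lay below both controls. The fall was 0.82 on the log2 scale (standard error 0.21, adjusted p = 0.0415), and it is carried by between 43 and 118 reads per library. The call was lost without Eto2 WT replicate 1 (log2 fold change -0.84) and without replicate 2 (-0.80). It was also lost with either sh3 library or sh2 replicate 1 left out (adjusted p from 0.0645 to 0.0813). Over all left-out libraries the log2 fold change ran from -0.97 to -0.71. Against the same controls the fall was called with sh3 alone (-1.11, adjusted p = 0.000674) and not with sh2 alone (-0.57, adjusted p = 0.0669). With the replicate number as a block the adjusted p was 0.0616. In *Irf2bp2* KD *Kit* went from 3.25 and 3.13 CPM to 1.58 and 1.66 CPM with no overlap (log2 fold change -0.98, standard error 0.20, adjusted p = 0.000694).
The largest change of any of the 9 genes was that of *Kit* in MEL differentiation. The non-induced libraries held 257 and 140 *Kit* reads (12.8 and 11.8 CPM) and the induced libraries 18 and 0 (1.24 and 0 CPM, where a count of 0 allows up to 0.213 CPM). The fitted log2 fold change was -4.28 (standard error 0.78, adjusted p = 0.00175), a value that depends on how a library at 0 is treated. Without that library, MEL induced replicate 2, the log2 fold change was -3.28 (adjusted p = 4.66e-06). DESeq2 gave -4.30 with an adjusted p of 0.167. In the *Gfi1b* table the replicates differed more than the groups did, with *Kit* at 3.50 and 8.26 CPM in the controls and 3.09 and 9.18 CPM in the libraries labelled KD. In *Kdm1a* KD *Kit* was at 3.44 CPM in the control and 5.83 and 4.33 CPM in the KDs, above it in both but by less than the limit in replicate 2. Without Lsd1 KD replicate 2, *Kit* and *Stat5a* met the fold rule as well, 4 of 9 in all, beside 28.1% of all genes.

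Mast cells also carry KIT, and the summed level of 6 mast cell markers was read beside these values. It was between 12.2 and 13.7 CPM in the *Cbfa2t3* controls and 6.25 and 10.2 CPM in the KDs, between 7.07 and 7.58 CPM and 4.99 and 5.03 CPM for *Irf2bp2*, 14.6 CPM and between 42.2 and 44.9 CPM for *Kdm1a*, between 57.7 and 92.3 CPM before and 0.355 and 97.4 CPM after differentiation, and between 111 and 119 CPM and 281 and 489.7 CPM for *Gfi1b*. Between 2 and 4 of the 6 markers were above the floor in a table. Thus the sum moved with *Kit* in the 3 shRNA tables, and in MEL differentiation it overlapped between groups. *Tpsb2* was at or under the floor, or not listed, in all 5 tables, and *Cpa3* in the *Cbfa2t3* and *Irf2bp2* tables. Of 3 stromal markers, the sum was 6.38 to 8.30 CPM and 2.10 to 5.74 CPM for *Cbfa2t3*, 5.36 to 6.02 CPM and 2.65 to 2.79 CPM for *Irf2bp2*, 6.28 CPM and 21.1 to 24.3 CPM for *Kdm1a*, 22.2 to 23.6 CPM and 3.47 to 10.7 CPM in differentiation, and 17.1 to 19.3 CPM and 23.4 to 43.8 CPM for *Gfi1b*. The part of such cells in the *Kit* values was not tested. In these bulk samples fewer cells of a type and less RNA per cell cannot be told apart.

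*Epor*, on the minus strand at chr9:21763343-21768020 (mm9), behaved in the opposite way and at a far higher level. In the *Cbfa2t3* table it was at 211 and 230.2 CPM in the controls, 308 and 342 CPM with sh2 and 339 and 347 CPM with sh3. All KD libraries lay above both controls (log2 fold change 0.60, standard error 0.07, adjusted p = 0.00109). In *Irf2bp2* KD *Epor* went from 157 and 173 CPM to 328 CPM in both KD libraries, a 1.99-fold rise (standard error 0.09 on the log2 scale, adjusted p = 9.64e-08). In MEL differentiation it went from 254 and 156 CPM to 402 and 476 CPM, a 2.14-fold rise (log2 fold change 1.10, standard error 0.27, adjusted p = 0.00952). Without MEL non-induced replicate 2, the lower control, this value was 0.79 and its adjusted p 0.0771.

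In the other tables *Epor* was not called. It was at 202 CPM in the *Kdm1a* control and 148 and 149 CPM in the KDs, a log2 value of -0.45 and short of the limit of 0.5. For *Gfi1b* it was at 172 and 194 CPM in the controls and at 353 and 194 CPM in the libraries labelled KD, so that replicate 1 alone stood above. The summed level of 7 erythroid markers ran from 1285 to 1294 CPM in the *Cbfa2t3* controls and from 1799.6 to 2204 CPM in the KDs, from 1084 to 1153 CPM and from 3130.0 to 3385 CPM for *Irf2bp2*, and from 1687 to 1727 CPM and from 3799.5 to 4416 CPM in differentiation. In *Kdm1a* KD the sum was 1389 CPM in the control and at most 959.6 CPM in the KDs, and in the *Gfi1b* table it ran from 1097 to 1185 CPM and from 1133 to 3213 CPM. The sum moved the same way as *Epor* in the 4 tables other than that of *Gfi1b*. The summed level of 5 megakaryocyte markers was also higher, at 402 to 414 CPM and 476 to 590.1 CPM for *Cbfa2t3*, 368 to 423 CPM and 794 to 834 CPM for *Irf2bp2*, and 382 to 521 CPM and 1159 to 1288 CPM in differentiation. It was 338 CPM in the *Kdm1a* control and 285 to 348 CPM in those KDs, and 222 to 285 CPM and 174 to 884 CPM for *Gfi1b*. Of the 5 megakaryocyte markers, 1 was called higher and 0 lower in *Cbfa2t3* KD (2.99% and 2.75% of all genes). In *Irf2bp2* KD 5 were called higher (10.1%). In differentiation 1 was higher (12.4%) and 1 lower (14.8%), and in *Kdm1a* KD also 1 higher (13.1%) and 1 lower (9.8%). The sum thus does not stand for each marker. The part of either cell type in the *Epor* values was not tested.

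**Figure D3:**
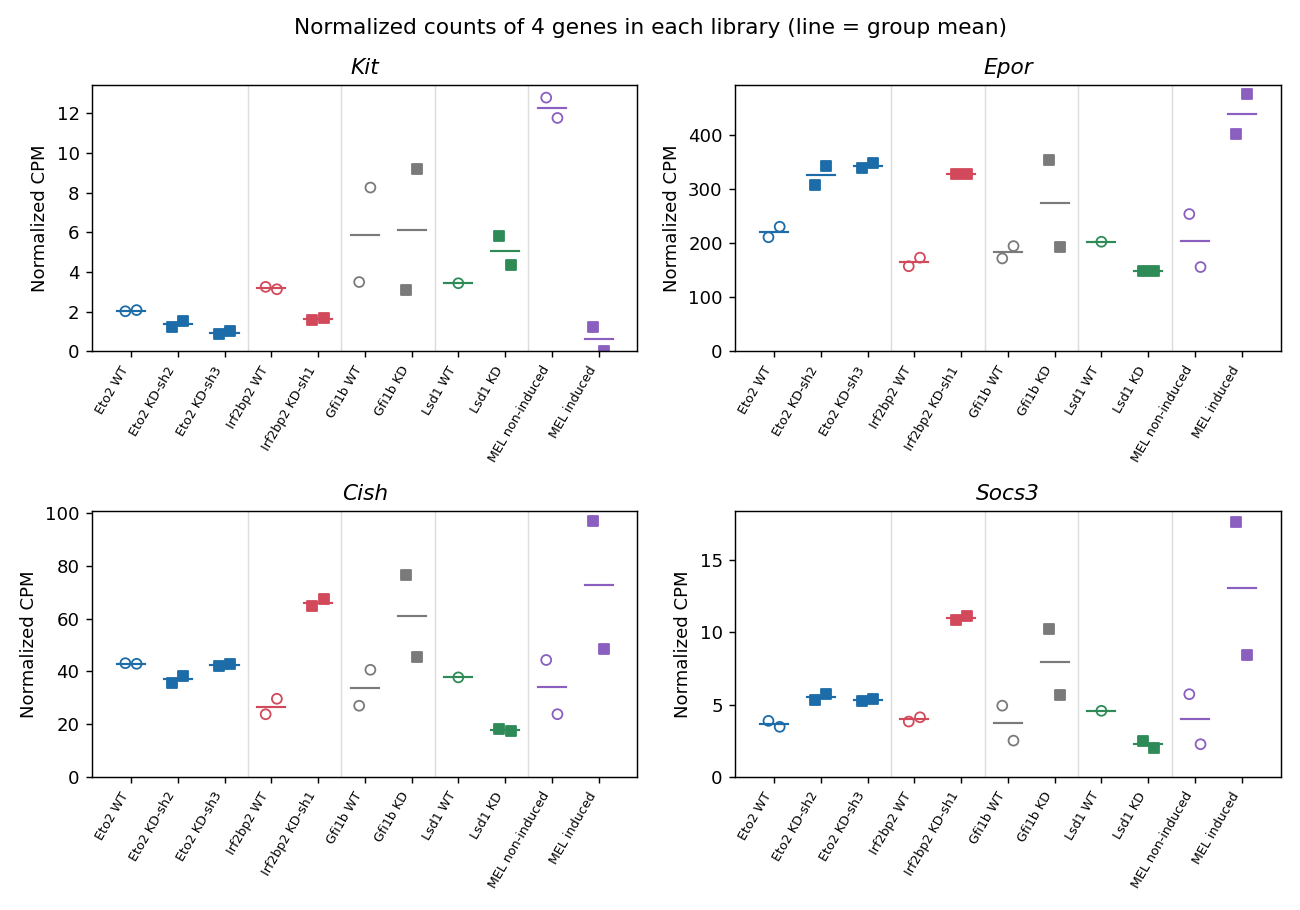
Normalized CPM (y axis, linear from 0) of *Kit*, *Epor*, *Cish* and *Socs3* in every library of each labelled group, with open circles for controls, filled squares for KD or induced libraries and a line at the group mean. *Epor* and *Socs3* lie above their controls in *Cbfa2t3* KD, *Irf2bp2* KD and induced MEL cells, and *Cish* and *Socs3* lie below theirs in *Kdm1a* KD.

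*Jak2*, on the plus strand at chr19:29326318-29387570 (mm9), encodes the kinase that EPOR relies on. In *Irf2bp2* KD it went from 346 and 319 CPM to 197 and 210.5 CPM, with no overlap (log2 fold change -0.71, standard error 0.09, adjusted p = 4.99e-06). The receptor and its kinase thus moved in opposite directions in this KD. In *Cbfa2t3* KD *Jak2* was at 223 and 209.5 CPM in the controls and between 175 and 192 CPM in the KDs, lower in all 4 but by only 0.22 on the log2 scale (adjusted p = 0.0427). In *Kdm1a* KD it was at 251 CPM in the control and 191 and 196 CPM in the KDs. It was higher in both induced libraries (470.0 and 574 CPM) than in the non-induced ones (260.1 and 394 CPM), and this missed the limit on p (log2 fold change 0.67, standard error 0.26, adjusted p = 0.0696). The value passed without a filter on low counts (adjusted p = 0.0371) and with the replicate number as a block (0.70, adjusted p = 0.0144). With 1 library left out at a time the log2 fold change ran from 0.39, short of the fold limit, to 1.00. The latter came without MEL non-induced replicate 2. For *Gfi1b* the controls were at 296 and 277 CPM and the libraries labelled KD at 435 and 329 CPM (log2 fold change 0.42, standard error 0.22, adjusted p = 0.718).

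*Stat5a* and *Stat5b* are close paralogues that lie head to head on chromosome 11, at chr11:100720665-100746483 (plus strand) and chr11:100642045-100712038 (minus strand), with 8627 bp between their annotated starts. Reads of identical stretches could have been split between them by the counting. In *Irf2bp2* KD *Stat5b* went from 142 and 139 CPM to 102 and 91.5 CPM (log2 fold change -0.54, standard error 0.08, adjusted p = 5.86e-05), and this call was lost on the fold limit without KD replicate 2 (-0.46). *Stat5a* was at 142 CPM in both controls and at 127 and 112 CPM in the KDs, with a log2 value of -0.25 that stayed short of the fold limit (adjusted p = 0.0268). In MEL differentiation *Stat5a* was at 161 and 137 CPM before and 103 and 96.9 CPM after (log2 fold change -0.58, standard error 0.24, adjusted p = 0.0826). *Stat5b* was at 170.2 and 163 CPM before and 125 and 119 CPM after (-0.45, standard error 0.23, adjusted p = 0.165). Both genes were lower in both induced libraries, and neither passed the test. With the replicate number as a block *Stat5a* passed (-0.57, adjusted p = 0.0449).

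In *Cbfa2t3* KD the STAT5 genes stayed near their controls. *Stat5a* was at 134 CPM in both controls and between 122 and 135 CPM in the KDs, and *Stat5b* at 123 and 126 CPM and between 125 and 143 CPM. In *Kdm1a* KD *Stat5a* was at 165 CPM in the control and 234 and 206 CPM in the KDs, and *Stat5b* at 135 CPM and 152 and 138 CPM, and neither met the rule. The libraries labelled Gfi1b KD lay on either side of the controls for both genes, with *Stat5a* at 139 and 140.1 CPM against 126 and 169 CPM and *Stat5b* at 132 and 138 CPM against 128 and 165 CPM.

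*Cish* encodes a feedback inhibitor that binds activated cytokine receptors, and it lies on the plus strand at chr9:107198357-107205115 (mm9). In *Irf2bp2* KD it went from 23.8 and 29.6 CPM to 64.9 and 67.3 CPM, a 2.47-fold rise with no overlap (log2 fold change 1.31, standard error 0.10, adjusted p = 2.03e-08). In *Cbfa2t3* KD it was at 43.1 and 42.9 CPM in the controls, 35.6 and 38.4 CPM with sh2 and 42.1 and 42.8 CPM with sh3 (log2 fold change -0.11, standard error 0.09, adjusted p = 0.454). The controls of these 2 tables themselves differed, from 23.8 to 43.1 CPM. In *Kdm1a* KD *Cish* was at 37.7 CPM in the control and 18.3 and 17.3 CPM in the KDs, less than any other library of the 5 tables, with a log2 value of -1.09.

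In MEL differentiation *Cish* went from 44.3 and 23.8 CPM to 96.9 and 48.6 CPM (log2 fold change 1.09, standard error 0.35, adjusted p = 0.0334). The groups did not overlap, but the lower induced library was close to the higher non-induced one. The call was lost without MEL non-induced replicate 2 (0.72, adjusted p = 0.269) and without MEL induced replicate 1 (0.50, adjusted p = 0.332). In the *Gfi1b* table *Cish* was at 27.0 and 40.6 CPM in the controls and 76.4 and 45.5 CPM in the libraries labelled KD (log2 fold change 0.85, standard error 0.34, adjusted p = 0.699).

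*Socs3*, on the minus strand at chr11:117827393-117831361 (mm9), encodes an inhibitor that binds JAK kinases and cytokine receptors. It was scarce in all libraries. In *Cbfa2t3* KD it went from 3.89 and 3.47 CPM to between 5.28 and 5.76 CPM, with no overlap (log2 fold change 0.56, standard error 0.12, adjusted p = 0.0152). The call was lost without Eto2 WT replicate 1 (0.64, adjusted p = 0.102) and without replicate 2 (0.48, adjusted p = 0.182). In *Irf2bp2* KD *Socs3* went from 3.84 and 4.13 CPM to 10.9 and 11.1 CPM, a 2.76-fold rise (log2 fold change 1.46, standard error 0.14, adjusted p = 2.05e-07).

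The direction of *Socs3* was again the reverse with LSD1 depletion, from 4.58 CPM in the control to 2.51 and 2.01 CPM, a log2 value of -1.01. In MEL differentiation it went from 5.73 and 2.27 CPM to 17.6 and 8.44 CPM (log2 fold change 1.68, standard error 0.50, adjusted p = 0.0235). The replicates of each group there differed more than 2-fold, and the adjusted p was 0.187 without MEL non-induced replicate 2 and 0.13 without MEL induced replicate 1. In the *Gfi1b* table *Socs3* was at 4.94 and 2.52 CPM in the controls and 10.2 and 5.69 CPM in the libraries labelled KD (log2 fold change 1.09, standard error 0.54, adjusted p = 0.71).

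*Socs2* and *Pim1*, a feedback inhibitor and a survival kinase that are also known STAT5 targets, were called in none of the 5 comparisons. *Socs2* lies on the minus strand at chr10:94847996-94879814 (mm9). It was at 31.9 and 30.7 CPM in the Irf2bp2 WT libraries and 35.0 and 38.2 CPM in the KDs (log2 fold change 0.22, standard error 0.09, adjusted p = 0.0501), and over all 21 libraries it ranged only from 28.0 to 46.8 CPM. *Pim1*, on the plus strand at chr17:29627757-29632390 (mm9), was at 119 and 127 CPM in the Irf2bp2 WT libraries and 143 and 140.3 CPM in the KDs (log2 fold change 0.20, standard error 0.08, adjusted p = 0.0501). In MEL differentiation *Pim1* was at 193 and 205 CPM before and 225 and 115 CPM after, so that the induced libraries lay on either side. For *Gfi1b* it was at 144 and 181 CPM in the controls and 207 and 235 CPM in the libraries labelled KD, and without the doubted replicate 1 it was called (log2 fold change 0.53, adjusted p = 0.0228).

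The difference between 2 KDs was tested in a joint fit of the 21 libraries, where the limits are those above. None of the 9 genes differed between *Irf2bp2* KD and *Cbfa2t3* KD, where 1.18% of all genes did. The nearest were *Stat5b* (difference of log2 fold changes -0.63, standard error 0.16, adjusted p = 0.0627) and *Cish* (1.42, standard error 0.40, adjusted p = 0.105). None differed between *Kdm1a* KD and *Cbfa2t3* KD, where 5.42% of all genes did, and the nearest was *Epor* (-1.04, standard error 0.33, adjusted p = 0.0823). For *Socs3* that difference was -1.57 (standard error 0.57, adjusted p = 0.129). None differed between *Gfi1b* KD and *Cbfa2t3* KD, where 2.46% of all genes did. The lone *Kdm1a* control was assumed to vary like the other groups, so the values for that KD lean on a spread that was not measured. The joint fit lets the widely spread *Gfi1b* and differentiation libraries set part of the error, so a p that misses the limit does not show that the KDs act alike.

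Within *Cbfa2t3* KD, sh3 left less *Cbfa2t3* mRNA than sh2 (log2 difference -0.73, adjusted p = 0.000752). None of the 9 genes differed between the hairpins, beside 3.71% of all genes. *Kit* was lower with sh3 (-0.53, standard error 0.21, adjusted p = 0.115) and *Epor* was nearly the same (0.08, standard error 0.07, adjusted p = 0.5).

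Beyond the 9 genes, a list of 67 further genes of these pathways was read in the same fits. In *Cbfa2t3* KD 4 of 59 tested rose and 6 fell, beside 2.99% and 2.75% of all genes. In *Irf2bp2* KD 10 of 59 rose and 9 fell, beside 10.1% and 12.5%. In MEL differentiation 9 of 58 rose and 12 fell, beside 12.4% and 14.8%. In *Kdm1a* KD 10 of 59 were higher and 6 lower by the fold rule, beside 13.1% and 9.8%. In *Gfi1b* KD 0 of 58 were called, while DESeq2 called 2, beside 0.378% of all genes. The median log2 fold change of the list ran from -0.07 to 0.13 over the 5 comparisons, and that of all genes tested from -0.02 to 0.02.

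Among receptors, *Csf2rb*, the common beta chain of the IL-3, IL-5 and GM-CSF receptors, and *Csf2rb2*, its IL-3-specific relative in mice, were higher in all 3 shRNA experiments. *Csf2rb2* went from 40.5 and 41.7 CPM to between 79.3 and 151 CPM in *Cbfa2t3* KD (log2 fold change 1.48, adjusted p = 0.00491) and from 27.8 and 28.3 CPM to 73.6 and 65.9 CPM in *Irf2bp2* KD (1.31, adjusted p = 4.03e-09). It was at 43.9 CPM in the *Kdm1a* control and 139 and 127 CPM in those KDs. *Csf2rb* went from 137 and 138 CPM to between 198 and 319 CPM in *Cbfa2t3* KD (0.91, adjusted p = 0.0121) and from 147 CPM to 347 and 333 CPM in *Kdm1a* KD. In *Irf2bp2* KD, a value added after it was seen, *Csf2rb* went from 105.5 ± 6.19 to 199.9 ± 12.4 CPM (SD, n = 2 each; log2 fold change 0.92, edgeR adjusted p = 2.28e-07). The 2 genes are near-identical neighbours, so the split of reads between them is uncertain. Unlike *Epor*, they were higher with LSD1 depletion too. In MEL differentiation *Il6st*, the shared signalling chain of IL-6-type receptors, rose from 21.9 and 19.8 CPM to 43.8 and 69.2 CPM (1.44, adjusted p = 0.00329).

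Of 18 adaptors and kinases that act downstream of such receptors, 3 fell in *Cbfa2t3* KD (2.75% of all genes fell) and 0 rose (2.99% rose). In *Irf2bp2* KD 4 fell (12.5% of all genes) and 1 rose (10.1%), and in differentiation 7 fell (14.8%) and 2 rose (12.4%). In *Kdm1a* KD 1 was lower (9.8%) and 2 were higher (13.1%). *Tec*, a cytoplasmic tyrosine kinase, went from 15.5 and 17.4 CPM to between 4.46 and 8.19 CPM in *Cbfa2t3* KD (log2 fold change -1.43, adjusted p = 0.00302) and from 15.2 and 14.6 CPM to 6.31 and 6.09 CPM in *Irf2bp2* KD (-1.26, adjusted p = 2.62e-07). It went the other way in *Kdm1a* KD, from 13.5 CPM to 31.7 and 30.8 CPM. *Pik3cd*, a catalytic subunit of PI 3-kinase, fell in *Cbfa2t3* KD (-0.92, adjusted p = 0.00177) and in MEL differentiation (-1.80, adjusted p = 0.00168). *Gab2*, a docking protein of cytokine receptors, fell from 40.7 and 42.1 CPM to 14.02 and 12.7 CPM in *Irf2bp2* KD (-1.63, adjusted p = 9.65e-10). *Tec* thus fell in *Cbfa2t3* KD and *Irf2bp2* KD and was higher in *Kdm1a* KD, where it was set against 1 control. For *Tec* the difference between the KDs was not tested.

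Against the same shares of all genes, of 17 inhibitors 0 rose (2.99%) and 2 fell (2.75%) in *Cbfa2t3* KD, 1 rose (10.1%) and 3 fell (12.5%) in *Irf2bp2* KD, 4 rose (12.4%) and 3 fell (14.8%) in differentiation, and 3 were higher (13.1%) and 0 lower (9.8%) in *Kdm1a* KD. *Dok2*, a docking protein that damps tyrosine kinase signals, fell in *Cbfa2t3* KD (log2 fold change -0.79, adjusted p = 0.000786). In differentiation *Pias3*, an inhibitor of STAT3, rose from 51.1 and 36.8 CPM to 135 and 131 CPM (1.59, adjusted p = 0.00073), and *Dok1*, a relative of *Dok2*, rose from 15.5 and 12.5 CPM to 27.3 and 30.3 CPM (1.04, adjusted p = 0.0218). Of 7 further JAK and STAT genes, 0 were called in *Cbfa2t3* KD (5.74% of all genes), 1 rose and 1 fell in *Irf2bp2* KD (10.1% and 12.5%), 2 rose in differentiation (12.4%) and 2 were higher in *Kdm1a* KD (13.1%).

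Of 13 tested genes known as STAT5 targets, 5 rose and 1 fell in *Irf2bp2* KD, beside 10.1% and 12.5% of all genes. *Tfrc*, the transferrin receptor and also an erythroid marker, rose from 267 and 244 CPM to 868 and 976 CPM (1.85, adjusted p = 2.12e-10), and *Bcl2l1*, which encodes the survival protein BCL-XL, from 19.5 and 20.3 CPM to 36.4 and 42.2 CPM (0.98, adjusted p = 4.9e-07). *Trib3*, a pseudokinase, fell from 54.2 and 61.7 CPM to 16.4 and 16.8 CPM (-1.80, adjusted p = 2.29e-10). In *Cbfa2t3* KD 2 of 13 rose and 1 fell, beside 2.99% and 2.75% of all genes, and *Fam132b*, the hormone erythroferrone, rose from 12.01 and 10.6 CPM to between 18.1 and 27.1 CPM (0.97, adjusted p = 0.0111). In *Kdm1a* KD 0 of 13 were higher and 5 lower, beside 13.1% and 9.8%. *Podxl*, a sialomucin, was at 463 CPM and 117 and 118 CPM there, *Ccnd2*, cyclin D2, at 389 CPM and 118 and 114 CPM, and *Id1*, an inhibitor of helix-loop-helix factors, at 39.5 CPM and 17.0 and 15.5 CPM. In differentiation 0 of 13 rose (12.4% of all genes) and 2 fell (14.8%), *Podxl* from 263 and 297 CPM to 98.3 and 43.2 CPM (-1.98, adjusted p = 0.000953) and *Myc* from 359 and 314 CPM to 157 and 65.6 CPM (-1.60, adjusted p = 0.00395).

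The deposited list of sites bound by ETO2 or IRF2BP2 divides 13229 sites into 1760 ETO2-only, 2730 shared and 8739 IRF2BP2-only sites. The IRF2BP2 sites rest on 1 ChIP library of this series, and the ETO2 data come from an earlier study. A site was assigned to its single nearest protein-coding gene within 1 Mb. All 9 genes had a site, against 46.3% of the 9888 annotated genes tested in all 5 comparisons. In all 50 sites were assigned to the 9 genes, of which 37 were IRF2BP2-only, 9 shared and 4 ETO2-only. Some of them abut or overlap and are not independent. A site with ETO2 lay at 5 of the 9 genes (*Kit*, *Epor*, *Stat5a*, *Stat5b* and *Pim1*), against 20.7% of those annotated genes. *Jak2*, *Cish*, *Socs2* and *Socs3* had IRF2BP2-only sites alone.

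**Figure D4:**
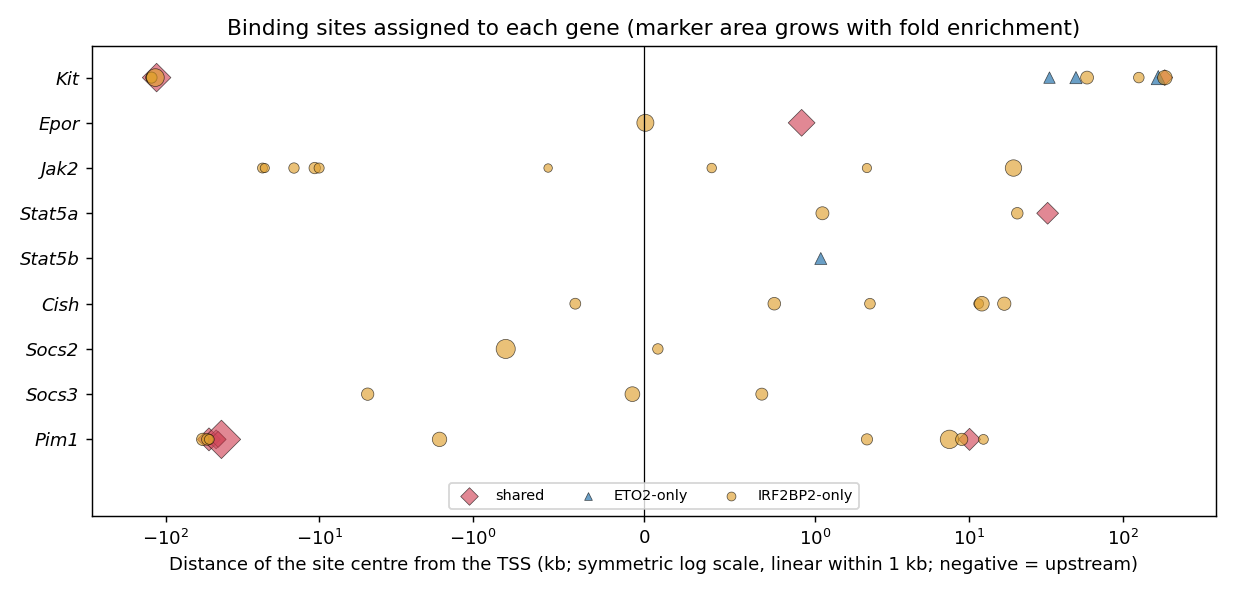
Distance of each assigned site from the transcription start site (TSS; x axis, kb, symmetric log scale) for the 9 genes, by class (shape and colour), with marker area growing with fold enrichment over IgG. The strongest shared sites lie 114252 bp upstream at *Kit*, 43300 bp upstream at *Pim1* and 921 bp past the start at *Epor*, and *Cish*, *Socs2* and *Socs3* carry IRF2BP2-only sites next to their starts.

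The strongest of the 50 by fold enrichment was a shared site 43300 bp upstream of *Pim1*, 43.0-fold over IgG (adjusted p of the authors 5.39e-32). *Pim1* had 13 sites in all, 5 of them shared, although its mRNA was called in no comparison. *Kit* had 11 sites. Its strongest by fold was a shared site 114252 bp upstream of the TSS, 22.7-fold over IgG (adjusted p of the authors 9e-15). An IRF2BP2-only site 116367 bp upstream had a lower fold (16.9) and a lower adjusted p (2.91e-28). In *Kit* introns, 2 ETO2-only sites lay 33347 and 49534 bp past the start. *Epor* had an IRF2BP2-only site 7 bp past its start (15.4-fold) and a shared site in an intron 921 bp past it (19.7-fold). The only site assigned to *Stat5b* was ETO2-only (6.5-fold) and lay in its intron, 1088 bp past the start, while a shared site assigned to *Stat5a* lies in an intron of the neighbour *Stat3* (12.3-fold). All 9 sites of *Jak2* were IRF2BP2-only, from 2.03-fold to 14.2-fold, the strongest in an intron 19460 bp past the start. The list does not say to which antibody the fold of a shared site belongs.

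Windows of 100 bp to either side of each site centre were searched on both strands for any of AGATAA, also AGATAG, also TGATAA and also TGATAG (together the GATA pattern), for the composite E-box/GATA motif, which contains it, and for TTCNNNGAA (the STAT pattern). The GATA pattern lay in 27 of the 50 windows, against 59.8% of all sites, in 4 of 4 at ETO2-only sites (88.7% of that class), in 7 of 9 at shared sites (90.4%) and in 16 of 37 at IRF2BP2-only sites (44.5%). The composite motif lay in 3 of 50 windows, against 15.4% of all, and the STAT pattern in 10 of 50, against 9.47% of all. These shares are descriptions. The stretches below come from mm9, read 5′ to 3′, with the matched motif in capitals. They show the *Kit* and *Pim1* sites strongest by fold, the *Kit* intron and the starts of *Epor* and *Stat5b*.

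Kit, shared, composite motif, minus strand, chr5:75856718-75856757: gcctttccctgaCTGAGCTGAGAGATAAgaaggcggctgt
Kit, ETO2-only, intron, composite motif, plus strand, chr5:76020480-76020519: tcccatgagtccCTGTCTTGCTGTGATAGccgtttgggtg
Epor, IRF2BP2-only, upstream of the start, GATA pattern, plus strand, chr9:21768052-21768091: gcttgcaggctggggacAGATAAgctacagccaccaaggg
Stat5b, ETO2-only, intron, GATA pattern, plus strand, chr11:100710949-100710988: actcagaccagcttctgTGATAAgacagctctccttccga
Pim1, shared, GATA pattern, minus strand, chr17:29584486-29584525: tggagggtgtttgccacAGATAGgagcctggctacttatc

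A RefSeq promoter window (250 bases before to 50 after the start, GRCm38.p6) was matched for 8 of the 9 genes, *Socs2* being the exception, and those of *Cish* and *Socs3* held the STAT pattern. Of all 32851 such windows 8.3% held it, and of all genes with a window 9.55%. The GATA pattern was found in the window of *Epor* only, against 33% of all genes with a window. At *Cish* the STAT pattern occurs as a pair 2 bases apart, which begins at the RefSeq start itself. Matched to mm9, the pair lies at chr9:107198990-107198998 and chr9:107199001-107199009, inside an IRF2BP2-only site of 7.43-fold enrichment. At *Socs3* it begins 154 bases before the RefSeq start, at chr11:117830826-117830834 in mm9, inside an IRF2BP2-only site of 6.5-fold. Each lies over 100 bases from the centre of its site and so was not counted in the windows above. The stretches are given in the sense of the gene, with the pattern in capitals.

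Cish: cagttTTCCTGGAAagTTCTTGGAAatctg
Socs3: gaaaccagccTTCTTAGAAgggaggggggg

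Of the 10 windows with the pattern, 4 were at *Cish*, 3 at *Pim1* and 1 each at *Kit*, *Jak2* and *Socs2*, and all but 2 shared sites of *Pim1* were IRF2BP2-only. The 4 *Cish* centres were 403 bp upstream and 761, 2271 and 16953 bp past the annotated start, and that at 761 bp is the site that holds the pair. The site of *Socs2* 810 bp upstream of its start, of 20-fold enrichment (adjusted p of the authors 0.000527), held the pattern. The match lies at chr10:94880570-94880578 and is shown here on the plus strand.

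Socs2: ataaccatttTTCTTTGAAatactgttctg

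No binding data of STAT5 were used here, and a match of letters is not a bound site. The mRNA of *Socs2* was called in no comparison.

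The pattern of each gene over the 21 libraries, as log2 CPM centred on each table, was compared by Pearson's r with that of 11053 genes kept in all 5 tables. *Epor* was most like *B4galt3* (0.98), *Atg4d* (0.97) and *Ppp2r5b* (0.97), and *Kit* most like *Acsbg1* (0.98), *Gsto1* (0.98) and *Slc28a2* (0.97). *Stat5b* was most like *Ddah2* (0.97), *Mitf* (0.94) and *Slc18a2* (0.91), and *Stat5a* most like *Prpsap1*, *Sec31a* and *2700094K13Rik* (0.93 each). *Jak2* was most like *Tmem106b* (0.96), *Mpp5* (0.95) and *Gm13157* (0.95), and *Pim1* most like *Hvcn1* (0.91), *Ift22* (0.91) and *Acot6* (0.87). *Cish* was most like *Slc38a10* (0.94), *Slc39a3* (0.92) and *Cant1* (0.90), and *Socs3* most like *St3gal3*, *Acap3* and *Smug1* (0.93 each). *Socs2* had no close companion, with *Snx8*, *Gadd45gip1* and *Ralb* at 0.78, 0.78 and 0.77. Among the 9 genes themselves, *Epor* went with *Socs3* (r = 0.87) and *Cish* (0.80), *Cish* with *Socs3* (0.87), *Stat5a* with *Stat5b* (0.82) and *Kit* with *Stat5a* (0.78) and *Stat5b* (0.69). *Epor* ran against *Kit* (-0.72), *Stat5a* (-0.70) and *Stat5b* (-0.70). The libraries of a table share controls and handling, so these values carry no p.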

How the data were processed

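The RNA-Seq data are 21 libraries of MEL cells. The authors mapped reads to mm9 with TopHat2, which the submitters' processing notes name with Bowtie and DESeq2, and deposited raw counts and RPKM per RefSeq gene and library. Strand use in counting is not given in the sources used here. Depth is given with the results. The authors' DESeq2 fold changes and p-values in these tables were not used. The deposited list of binding sites gives a fold (the ratio of ChIP to IgG) and an adjusted p-value per site, which the authors made with 3 peak callers, and a class from clustering, whose codes were read from the class sizes. Another 4 of its columns, with read numbers, were not used.

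Raw counts were tested with edgeR 4.0.16 in R 4.3.3 (TMM, filterByExpr, glmQLFTest), each table on its own, with Benjamini-Hochberg adjustment over its genes. CPM values use the TMM-scaled library size. The standard error is the absolute log2 fold change divided by the square root of F. *Kdm1a* KD used log2 CPM with a prior count of 2 and no test, with a prior count of 0.5 and an edgeR fit on the spread of the KD libraries as alternatives. RPKM values were used only for levels. Replicates were described as independent by the study. Site and motif searches used Python 3.11.15 with the mm9 genome and GENCODE annotation, and promoter windows are RefSeq's. The test was checked on simulated data.

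The 9 genes and the lists were chosen with earlier results of these data known. Named genes were the 9, the targeted genes, the 3 largest rises and 3 largest falls of the wider list per comparison among called genes whose groups did not overlap, and the 3 genes most like each of the 9. Alternatives were DESeq2 1.42.0 or its size factors, no filter, each hairpin alone, leaving out each library, a replicate block, a minimum of 10 counts per gene and library, and for sites a 100 kb limit and the median fold.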

Additional observations from a re-analysis of the deposited data

Results flagged for a closer look

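*Pim1* in Eto2 KD-sh2 replicate 2 was at 165 CPM, apart from the other 3 *Cbfa2t3* KD libraries, which lay between 138 and 142 CPM. The gap took 0.858 of the range of the 4 libraries, above the limit of Dixon's test. This group of 4 was examined for each of the 9 genes, and chance alone marks about 1 group of 4 like libraries in 20. It mixes 2 libraries of sh2 with 2 of sh3, which differ in *Cbfa2t3* mRNA, so the limit is only a guide here.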

How the results depend on the processing

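Depth limits *Kit* and *Socs3* most, as counts were low. DESeq2 size factors changed no call among the 9 genes and moved the median of all genes by less than 0.1 on the log2 scale. sh3 alone gave 1145 genes in *Cbfa2t3* KD. For *Gfi1b* KD, DESeq2 gave 47 genes and no filter 411, with 2 of the wider list each. Of the 50 sites, 21 lay at or above the median fold.

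Leaving out 1 library gave these ranges. *Cbfa2t3* KD had 279 to 797 genes, 1 to 3 of the 9 and 4 to 11 of the wider list, fewest genes without Eto2 WT replicate 1 (279) or 2 (360). *Gfi1b* KD had 0 to 3148 genes, 0 to 4 of the 9 and 0 to 22 of the list. The 3148 came without KD replicate 2, and 396 without the doubted replicate 1. *Kdm1a* KD had 2 to 4 of the 9, the latter without KD replicate 2. MEL differentiation had 1522 to 3369 genes, 2 to 4 of the 9 and 8 to 21 of the list, with 1522 genes without non-induced replicate 2, 1626 without non-induced replicate 1 and 1772 without induced replicate 2. A lone library was assumed to vary like the other group.

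Signs reversed among the left-out libraries, with log2 fold changes from -0.0099 to 0.065 for *Socs2* in *Cbfa2t3* KD, from -0.92 to 0.79 for *Kit*, -0.17 to 0.27 for *Stat5a* and -0.10 to 0.28 for *Stat5b* in *Gfi1b* KD, and from -0.21 to 0.093 for *Socs2* and -0.80 to 0.19 for *Pim1* in MEL differentiation. None of these was called. The cause was not tested.

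The replicate numbers share no stated batch, and same-numbered libraries correlated by 0.00153 to 0.252. With the replicate block, counts of calls stayed within 1.5 times; *Kit* in *Cbfa2t3* KD had an adjusted p of 0.0616, *Jak2* and *Stat5a* in differentiation passed (0.0144 and 0.0449), and *Kit* in *Gfi1b* KD reversed to -0.0091.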
